A study of Homo sapiens with 24 samples.

Results

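The MYC and MAX network was read as 9 genes, MYC, MYCL, MAX, MXD1, MXD3, MXD4, MXI1, MNT and MLX, by taking every array probe that the platform annotation gives to these symbols. They are 9 of 20046 genes with a probe and have 19 of the 47323 probes, and 13 probes of 8 genes were bright enough to be tested, within a test of 12469 genes in all. The cells were SKBR3, a human breast carcinoma line with an amplified HER2 gene. RNA came from cells infected for 48 h with shRNA lentivirus against PMCA2 (the calcium pump encoded by ATP2B2), against NHERF1 (a PDZ-domain scaffold) or against HER2 (the receptor encoded by ERBB2), and from control SKBR3 cells, for which the labels name no shRNA target. The 48 h infection is listed for the control arrays too, but no label says which virus, if any, the control cells received. Whether infection itself differs between control and knockdown cells is therefore not known. Each group has 6 Illumina arrays, 3 on each of 2 chips, 24 in all. No label says that arrays came from separate cultures, so the spread behind each p-value is that of these arrays and may be technical only; their number limits the precision. Each group has chip positions of its own, so position and group cannot be told apart.

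MYC is a basic helix-loop-helix leucine zipper protein that binds the DNA sequence CACGTG, the E-box, as a dimer with MAX, and recruits coactivators to genes of ribosome production, nucleotide synthesis and the cell cycle. MXD1, MXD3, MXD4, MXI1 and MNT also pair with MAX at E-boxes, but recruit SIN3 and histone deacetylases and so oppose MYC. MLX joins the system from the other side: it pairs with MNT and some MXD proteins and with the glucose-responsive factors MLXIP (MondoA) and MLXIPL (ChREBP). MYC messenger RNA and protein are short-lived, and in breast cells HER2 signalling is known to feed into both.

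Values below are the deposited probe intensities. An intensity above 106, the 95th percentile of 437 olfactory receptor probes, was taken as above the floor. Fold changes and log2 differences come from background-corrected values, so for a dim probe they exceed the ratio of the printed intensities. Calls are at an adjusted p under 0.05 from limma. The 3 comparisons with control share the control arrays, and comparisons between knockdowns share knockdown arrays.

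The targeted genes were checked first. NHERF1 intensity spanned 377 to 416 in NHERF1 knockdown arrays, 1969 to 2456 after PMCA2 knockdown, 2383 to 2628 after HER2 knockdown and 3844 to 4188 in control arrays. ERBB2 spanned 7280 to 7669 in HER2 knockdown arrays, 6786 to 7507 after PMCA2 knockdown, 4129 to 4870 after NHERF1 knockdown and 13580 to 14340 in control arrays. Both were below control in all 3 knockdowns, and the ERBB2 ranges of the PMCA2 and HER2 knockdowns overlapped (PMCA2 over HER2 knockdown log2 -0.067, adjusted p = 0.241). The 3 probes of ATP2B2 were at the floor in every group, so they do not check the PMCA2 label. All 3 knockdown groups stood apart from control: arrays of 2 knockdown groups correlated at 0.975 to 0.983 across the tested probes, and a knockdown with a control array at 0.934 to 0.938. Of 20 luminal breast markers with a probe, 11 were above the floor on all 6 arrays in each knockdown group and 17 in control. Their summed intensity was 32740 to 33750 after PMCA2 knockdown, 25440 to 26150 after NHERF1 knockdown, 30510 to 32160 after HER2 knockdown and 61350 to 65180 in control. The list holds ERBB2 itself; without it the sums were 25240 to 26690, 21170 to 21870 and 23010 to 24490 in the 3 knockdowns and 47290 to 50830 in control. AZGP1, SPDEF, SCGB2A2 and TFF3 were above the floor on no array of any knockdown group. The same held for ESR1, but too few of its control arrays were above the floor for it to be tested. CDH1 was above the floor on no array at all. Other luminal markers, named after their values were seen, rose: GATA3 had log2 differences from control of 2.28, 1.65 and 2.12 in the 3 knockdowns, with 2 of 6 control arrays above the floor, and KRT8 of 0.29, 0.24 and 0.75, while KRT18 rose after NHERF1 and HER2 knockdown (0.42 and 0.94) and gave -0.018 after PMCA2 knockdown, not called. Of 20 trophoblast markers, 13 were above the floor on all 6 arrays after PMCA2 knockdown, 13 after NHERF1 knockdown, 11 after HER2 knockdown and 7 in control, with summed intensities of 10080 to 10860, 7680 to 8123, 5560 to 6052 and 4790 to 5129. Of 17 mesenchymal and basal markers, 7, 9, 8 and 5 were above it in the same order of groups, with sums of 2441 to 2536, 5283 to 5460, 2869 to 3069 and 2211 to 2273. Single markers of both lists went either way. Of 17 tested trophoblast markers, 14, 11 and 11 rose against control in the 3 knockdowns. Another 2, 4 and 5 fell, the lowest log2 differences being -0.71, -2.44 and -2.91. Of 11 tested genes of the mesenchymal and basal list, 7, 8 and 6 rose. There 2, 0 and 1 fell, the lowest differences being -0.80, -0.03 and -2.20. Of all genes, 33.3%, 35.0% and 34.8% rose and 32.5%, 30.3% and 31.2% fell. These marker differences run along every comparison with control below; their part in the MYC and MAX values was not tested, and fewer cells of a type and less RNA per cell cannot be told apart.

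Against control, MYC, MXD1, MXD3 and MNT rose and MLX fell in all 3 knockdowns. MAX fell and MXD4 rose after NHERF1 and after HER2 knockdown. After PMCA2 knockdown 4 of 8 genes rose, where 33.3% of all genes tested did, and 1 fell, where 32.5% did. NHERF1 knockdown gave 5 of 8 higher against 35.0% of all genes, and 2 lower against 30.3%. HER2 knockdown gave 5 of 8 higher against 34.8% of all genes and 2 lower against 31.2%. With over 6 in every 10 genes called in each of these comparisons, a call by itself sets no member apart.

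**Figure D1:**
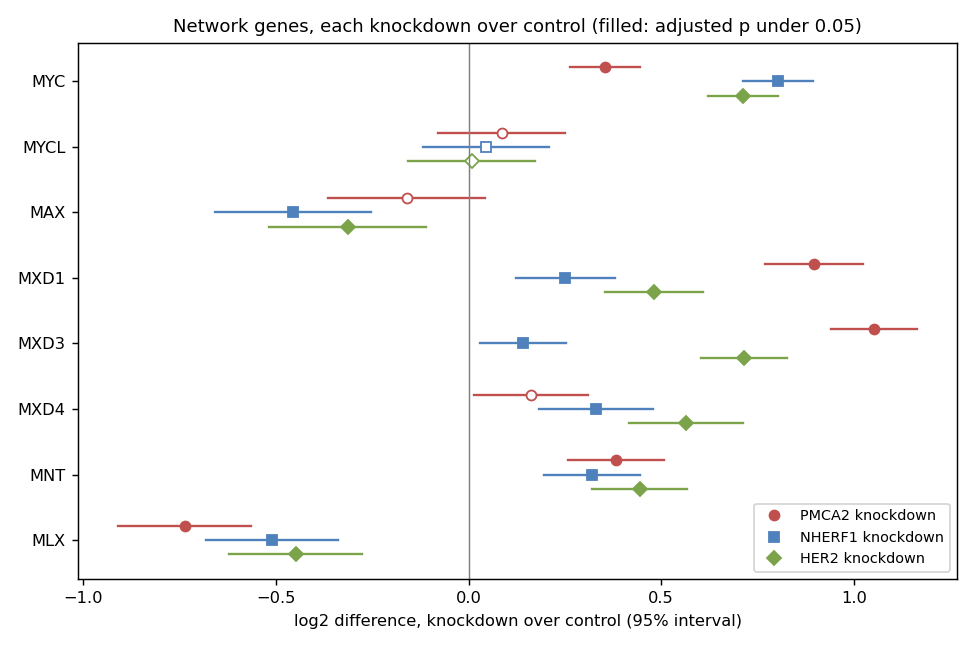
Log2 difference of each tested network gene between a knockdown and control SKBR3 cells (6 arrays a group), with its 95% interval from limma; filled symbols have an adjusted p under 0.05. MYC, MXD1, MXD3 and MNT lie to the right of 0 and MLX to the left in all 3 knockdowns, and MYCL stays near 0.

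MYC itself was highest after NHERF1 and HER2 knockdown, intermediate after PMCA2 knockdown and lowest in control. On its brighter probe the lowest, median and highest intensities were 3427, 3495 and 3656 after PMCA2 knockdown, 4499, 4757 and 5063 after NHERF1 knockdown, 4239, 4482 and 4693 after HER2 knockdown, and 2618, 2718 and 2974 in control. No knockdown array overlapped the control arrays, and only the NHERF1 and HER2 knockdown ranges overlapped each other. The fold over control was 1.28 after PMCA2 knockdown (log2 difference 0.35, 95% interval 0.26 to 0.44, adjusted p = 1.02e-07). NHERF1 knockdown gave 1.75-fold (log2 0.80, interval 0.71 to 0.90, adjusted p = 7.51e-15). HER2 knockdown gave 1.64-fold (log2 0.71, interval 0.62 to 0.80, adjusted p = 9.78e-14). ERBB2 messenger RNA was at 50.9% of control after PMCA2 knockdown, 31.5% after NHERF1 knockdown and 53.3% after HER2 knockdown. Between PMCA2 and HER2 knockdown ERBB2 was not called different (log2 -0.067, adjusted p = 0.241 in limma), while MYC was (log2 -0.36). Whether the ERBB2 level has a part in the MYC values was not tested.

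The dimmer MYC probe also placed control lowest and PMCA2 knockdown next. Its median intensity was 1075 after PMCA2 knockdown, 1334 after NHERF1 knockdown, 1502 after HER2 knockdown and 799.5 in control, with log2 differences from control of 0.47, 0.78 and 0.95 for the 3 knockdowns. Between knockdowns, MYC was lower after PMCA2 knockdown than after HER2 knockdown on the brighter probe (log2 -0.36, adjusted p = 1.41e-07) and on the dimmer one (log2 -0.48, adjusted p = 3.61e-06). It was also lower after PMCA2 than after NHERF1 knockdown, by -0.45 and -0.31 in log2 on the 2 probes (adjusted p = 2.5e-09 and 0.000852). The probes differ in sign for NHERF1 over HER2 knockdown: 0.09 (interval -0.001 to 0.18, adjusted p = 0.104) on the brighter probe and -0.17 (interval -0.32 to -0.023, adjusted p = 0.058) on the dimmer one. Neither passed the test. The dimmer probe was called in 6 of 11 alternatives (adjusted p between 0.0244 and 0.459), and without background correction both were called with opposite signs (0.089 and -0.16, adjusted p = 0.0388 and 0.0244), so the order of these 2 groups is not settled.

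MYCL, the paralog best known from lung cancer, stayed at the floor. Its 3 probes were above 106 on 11, 7 and 1 of the 24 arrays, and the 2 that could be tested gave log2 differences from control of 0.008 to 0.16, none called. MYCN, a further paralog that is usually confined to neural and embryonic cells, is not among the 9 genes but pairs with MAX in the same way, and it differed between all 4 groups.

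Its brighter probe read 392.7, 438.9 and 461.4 (lowest, median, highest) after PMCA2 knockdown, 1051, 1135 and 1212 after NHERF1 knockdown, 223, 241.9 and 257.9 after HER2 knockdown, and 128.1, 129.7 and 137.1 in control. The 4 groups did not overlap. MYCN rose 7.19-fold, 21.5-fold and 3.25-fold over control in the 3 knockdowns (adjusted p = 2.29e-24, 1.32e-28 and 2.54e-19), and the differences between knockdowns were all called too. On the dimmer MYCN probe control arrays reached the floor on 1 of 6 arrays, while all arrays of the 3 knockdowns did, with medians of 132.3, 195.8 and 112.6 against 102.4 in control. This probe gave smaller log2 differences from control, 1.16, 2.33 and 0.49, where the brighter probe gave 2.845, 4.428 and 1.702. MYC and MYCN therefore differed in the order of the knockdowns: MYCN was higher after PMCA2 than after HER2 knockdown (log2 1.14), the reverse of MYC.

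**Figure D2:**
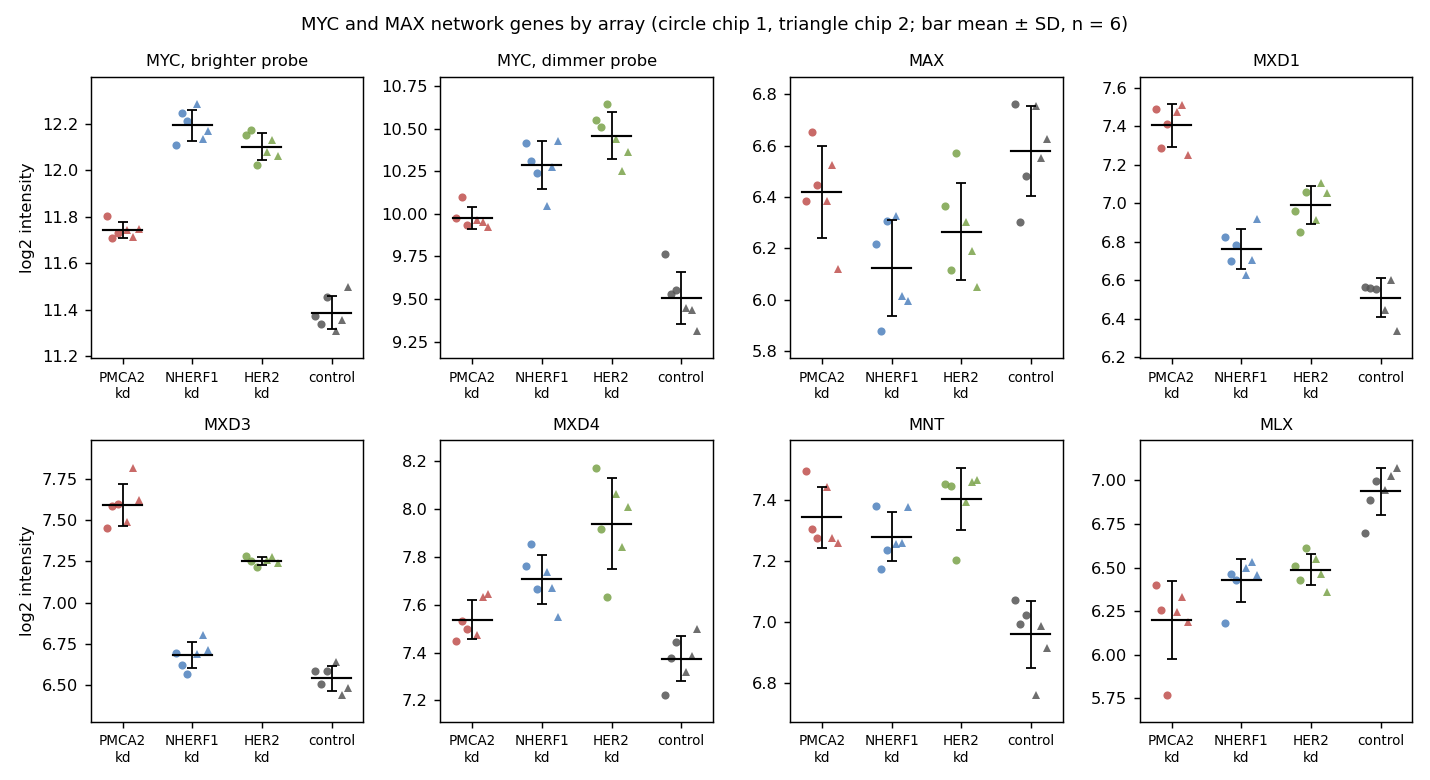
Log2 of background-corrected, normalised intensity for the network genes on each of the 24 arrays, by group (kd, knockdown), with the mean and SD of 6 arrays; each panel has its own axis. MYC is lowest in control on both probes, MXD1 and MXD3 are highest after PMCA2 knockdown, MXD4 after HER2 knockdown, and MLX is highest in control.

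MAX, the obligate partner of MYC and also a partner of the MXD proteins, went the other way from MYC in 2 of the 3 knockdowns. On the probe of highest mean the lowest, median and highest intensities were 151.2, 167 and 182.2 after PMCA2 knockdown, 140.4, 151.2 and 161.8 after NHERF1 knockdown, 147.9, 157.6 and 176.6 after HER2 knockdown, and 160.5, 177.9 and 190 in control. All pairs of groups overlapped on this probe. MAX fell 1.37-fold after NHERF1 knockdown (log2 -0.46, interval -0.66 to -0.25, adjusted p = 0.000264) and 1.24-fold after HER2 knockdown (log2 -0.31, interval -0.52 to -0.11, adjusted p = 0.00793). After PMCA2 knockdown the log2 difference from control was -0.16 (interval -0.36 to 0.043, adjusted p = 0.176), which was not called. PMCA2 knockdown arrays had more MAX than NHERF1 knockdown arrays (log2 0.30, adjusted p = 0.0148).

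The other 3 MAX probes were read as separate measures. For NHERF1 over control they gave log2 differences of -0.34, -0.24 and -0.49, of which the second missed the threshold (adjusted p = 0.0534). HER2 knockdown over control gave -0.40, -0.23 and -0.56 on the same probes, and again the second missed it (adjusted p = 0.0697). That probe, ILMN_1802457, is the least steady of the 4: its HER2 knockdown difference was -0.58 on chip 1 (adjusted p = 4e-04) and 0.12 on chip 2 (adjusted p = 0.438). Only the dimmest probe, ILMN_1706546, called MAX lower after PMCA2 knockdown (log2 -0.23, adjusted p = 0.0223), and on chip 1 alone it did not (adjusted p = 0.474). On all 4 probes MAX was higher after PMCA2 than after NHERF1 knockdown, by 0.25 to 0.30 in log2, each called, although on chip 2 alone none of the 4 was (log2 0.16 to 0.24, adjusted p between 0.152 and 0.431).

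**Figure D3:**
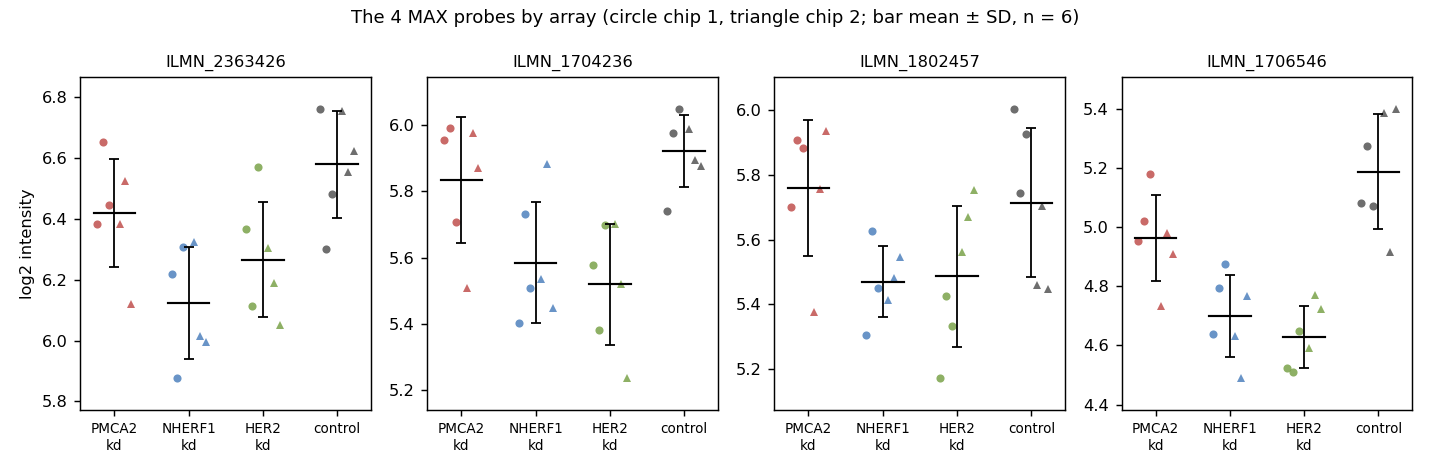
Log2 intensity of the 4 MAX probes on each array, by group, with the mean and SD of 6 arrays. NHERF1 and HER2 knockdown means lie below the control mean on every probe, while the PMCA2 knockdown mean lies nearer to control than both on each probe.

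Among the MYC antagonists, MXD1 and MXD3 shared an order that MXD4 did not. MXD1, which is induced as cells differentiate, had lowest, median and highest intensities of 234, 255.7 and 264.3 after PMCA2 knockdown, 180.4, 189 and 202.8 after NHERF1 knockdown, 197.2, 210.2 and 219.6 after HER2 knockdown, and 162.3, 175.8 and 178.5 in control. PMCA2 knockdown arrays lay above all others, control arrays below all others, and the NHERF1 and HER2 knockdown ranges overlapped. The folds over control were 1.86, 1.19 and 1.40 in that order of knockdowns (adjusted p = 9.49e-13, 0.00102 and 1.57e-07). MXD1 was higher after PMCA2 than after HER2 knockdown (log2 0.41, adjusted p = 3.1e-06) and lower after NHERF1 than after HER2 knockdown (log2 -0.23, adjusted p = 0.00348), a call that neither chip gave alone (log2 -0.18 and -0.27, adjusted p = 0.113 and 0.059).

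MXD3, the family member found in proliferating cells in the S phase, spread the groups furthest of the tested members. Its intensities were 257, 274.5 and 307.3 after PMCA2 knockdown, 176.4, 185 and 193.2 after NHERF1 knockdown, 230.3, 234.3 and 237.1 after HER2 knockdown, and 168.6, 175.2 and 181.2 in control. Only NHERF1 knockdown and control overlapped. The folds over control were 2.07, 1.10 and 1.64 (adjusted p = 1.64e-15, 0.029 and 6.93e-12). The NHERF1 call is small and not steady: its log2 difference was 0.14 on both chips, 0.066 on chip 1 (adjusted p = 0.526) and 0.22 on chip 2 (adjusted p = 0.0566), and over 12 alternatives its adjusted p ran between 0.0192 and 0.526. Between knockdowns MXD3 differed in every pair: 0.34 for PMCA2 over HER2, -0.57 for NHERF1 over HER2 and 0.91 for PMCA2 over NHERF1 in log2.

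MXD4 was highest after HER2 knockdown. Its lowest, median and highest intensities were 256.2, 264.5 and 281.5 after PMCA2 knockdown, 268.9, 290.3 and 312.9 after NHERF1 knockdown, 279.8, 331.3 and 370.3 after HER2 knockdown, and 231.2, 248.6 and 262.3 in control. NHERF1 and HER2 knockdown arrays were all above control, and PMCA2 knockdown arrays overlapped control. HER2 knockdown raised MXD4 1.48-fold (log2 0.56, adjusted p = 1.27e-07) and NHERF1 knockdown 1.26-fold (log2 0.33, adjusted p = 0.000261). The PMCA2 knockdown difference of 0.16 (interval 0.015 to 0.31) missed the threshold with an adjusted p of 0.0557, and passed it in 6 of 12 alternatives (adjusted p between 0.0249 and 0.358). MXD4 was lower after PMCA2 than after HER2 knockdown (log2 -0.40, adjusted p = 3.84e-05), the opposite direction to MXD1 and MXD3. MXI1, also known as MXD2, could not be tested: its 4 probes were above the floor on 3, 2, 0 and 1 of 24 arrays, with no group holding over 1 such array per probe.

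MNT, the broadly expressed repressor that keeps MYC in check in resting and cycling cells alike, rose by similar amounts in the 3 knockdowns. Intensities were 234.9, 238.2 and 262.1 after PMCA2 knockdown, 226, 234.6 and 248.2 after NHERF1 knockdown, 228.9, 256.4 and 258.5 after HER2 knockdown, and 190.2, 208.9 and 216.1 in control. All 18 knockdown arrays were above all 6 control arrays. The folds were 1.3, 1.25 and 1.36 (adjusted p = 3.67e-06, 4.49e-05 and 3.52e-07). Differences between knockdowns were not called, with intervals of -0.18 to 0.063 for PMCA2 over HER2, -0.25 to 0 for NHERF1 over HER2 and -0.061 to 0.19 for PMCA2 over NHERF1 in log2.

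MLX, the partner of MLXIP and MLXIPL, was the member that fell in every knockdown. On its bright probe the lowest, median and highest intensities were 136.3, 157.8 and 166 after PMCA2 knockdown, 154.3, 169.6 and 174 after NHERF1 knockdown, 163.8, 171.1 and 179.6 after HER2 knockdown, and 185.4, 206.9 and 216.1 in control. Control arrays were above all knockdown arrays, and the knockdown ranges overlapped. MLX fell 1.67-fold after PMCA2 knockdown (log2 -0.74, adjusted p = 1.62e-08), 1.42-fold after NHERF1 knockdown (log2 -0.51, adjusted p = 7.01e-06) and 1.37-fold after HER2 knockdown (log2 -0.45, adjusted p = 3.91e-05). It was lower after PMCA2 than after HER2 knockdown (log2 -0.29, adjusted p = 0.00564) and than after NHERF1 knockdown (log2 -0.23, adjusted p = 0.0261). On chip 1 alone neither of these was called (log2 -0.37 and -0.21, adjusted p = 0.0592 and 0.275); over 12 alternatives the first was called in 11 and the second in 10. A second MLX probe was above the floor on 2 arrays, both control, and was not tested.

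Read between knockdowns, the members split. For PMCA2 over HER2 knockdown, 2 of 8 genes were higher (MXD1, MXD3), where 25.6% of all genes were, and 3 lower (MYC, MXD4, MLX), where 28.1% were. For NHERF1 over HER2 knockdown 0 were higher against 25.7% of all genes, at an adjusted p under 0.05 in limma, and 3 lower (MXD1, MXD3, MXD4) against 24.5%. For PMCA2 over NHERF1 knockdown, 3 were higher (MAX, MXD1, MXD3) against 26.4% of all genes and 2 lower (MYC, MLX) against 29.1%. PMCA2 knockdown cells therefore held less MYC and more MXD1 and MXD3 than either of the other knockdowns, with MYC still above control.

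The chips were taken apart because each holds all 4 groups. MYC on both probes, MXD1 and MXD3 after PMCA2 and HER2 knockdown, and MNT after PMCA2 and HER2 knockdown were called against control on each chip alone. Chip 1 alone did not call MXD1 or MNT after NHERF1 knockdown (log2 0.21 and 0.23, adjusted p = 0.0507 and 0.0601), nor MLX or MAX after HER2 knockdown (log2 -0.34 and -0.16, adjusted p = 0.0627 and 0.397). On chip 2 these 4 were called, with log2 differences of 0.29, 0.41, -0.56 and -0.46. Without background correction the differences of several dim members shrink by over 1.5 times: MXD1, MXD3 and MLX after PMCA2 knockdown had 0.54, 0.65 and -0.39, with directions and calls kept, while MYC on its brighter probe stayed at 0.34.

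The E-box was looked for in the members' own promoters, since MYC, MNT and MLX all read this sequence. RefSeq promoter windows of 300 bases, 250 before to 50 after a gene's start (build GRCh38.p14), were at hand for 8 of the 9 genes. The letters CACGTG, which read the same on both strands, were in 3 of the 11 windows of these 8 genes, those of MXD4, MNT and MLX, and in 7.26% of 35116 windows of all genes. The 80 bases around each match are shown in gene orientation, 5′ to 3′, with the E-box in capitals, beside those of ODC1 and CDK4, classical MYC target genes described further on.
MXD4: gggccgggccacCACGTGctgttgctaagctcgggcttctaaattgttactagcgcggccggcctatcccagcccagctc
MNT: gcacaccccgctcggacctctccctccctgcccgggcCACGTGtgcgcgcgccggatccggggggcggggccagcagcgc
MLX: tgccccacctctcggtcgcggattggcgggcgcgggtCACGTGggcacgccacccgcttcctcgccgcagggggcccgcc
ODC1: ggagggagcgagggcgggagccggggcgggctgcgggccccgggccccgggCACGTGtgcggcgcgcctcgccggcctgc
CDK4: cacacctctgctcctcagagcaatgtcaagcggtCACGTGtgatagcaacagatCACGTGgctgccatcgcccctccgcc
The stretch of MXD4 is chr4:2262280-2262359 on the minus strand, that of MNT chr17:2401211-2401290 on the minus strand and that of MLX chr17:42567013-42567092 on the plus strand. ODC1 lies at chr2:10448013-10448092 and CDK4 at chr12:57752481-57752560, both on the minus strand. The first base of the E-box is at -238 from the start in MXD4, -193 in MNT, -50 in MLX, -29 in ODC1 and -216 in CDK4, and the whole windows of ODC1 and CDK4 hold 2 and 3 E-boxes. The 3 members with the letters did not move together: MNT rose and MLX fell in all knockdowns, and MXD4 rose in 2. A match describes a sequence and shows no binding.

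Counts over the gene lists that follow are to be read against the shares of all genes called, which after PMCA2, NHERF1 and HER2 knockdown were 33.3%, 35.0% and 34.8% higher and 32.5%, 30.3% and 31.2% lower than control. The other factors that read E-boxes or join the network were followed in a list of 9 genes, 8 of them tested. After PMCA2, NHERF1 and HER2 knockdown 6, 6 and 6 rose and 1, 1 and 2 fell against control, with medians of 0.39, 0.38 and 0.55 in log2; the medians of all genes were 0.0022, 0.022 and 0.022. MGA, a large MAX partner that represses germline genes, had log2 differences of 0.49, 0.48 and 0.56 on its brighter probe, all called, and 0.11, 0.017 and 0.059 on its dimmer probe, none called. USF1, another E-box factor, fell by 0.44, 0.41 and 0.40 on the log2 scale; its second probe gave -0.31, -0.21 and -0.20, of which the first was called. The glucose sensor MLXIP was below the floor on too many arrays to be tested.

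Of 16 cofactors of MYC, 9, 9 and 7 rose against control in the 3 knockdowns, which is 56.2%, 56.2% and 43.8% of the list beside 33.3%, 35.0% and 34.8% of all genes. Another 2, 1 and 2 fell, and the medians were 0.21, 0.33 and 0.16 in log2. TRRAP, the scaffold of histone acetyltransferase complexes that binds MYC directly, had median intensities of 1238, 1324 and 1272 in the 3 knockdowns and 903.1 in control, and rose 1.43, 1.54 and 1.42-fold. RUVBL1, an ATPase of the same complexes, rose 1.22, 1.69 and 1.68-fold and was lower after PMCA2 knockdown than after HER2 knockdown (log2 -0.46, adjusted p = 9.2e-08), the direction of MYC. WDR5, which helps MYC onto chromatin, rose 1.33, 1.27 and 1.59-fold on its brighter probe, while its other probe was called after NHERF1 knockdown only. ZBTB17 (MIZ1), through which MYC represses genes, had log2 differences of -0.079, -0.11 and -0.18, and the last was called.

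Of the SIN3 and deacetylase machinery used by MXD proteins and MNT, 11 genes were tested. In the 3 knockdowns 3, 6 and 3 rose and 5, 3 and 5 fell against control, or 27.3%, 54.5% and 27.3% higher and 45.5%, 27.3% and 45.5% lower (medians -0.18, 0.16 and -0.008 in log2). SIN3B rose 1.56, 1.27 and 1.49-fold. SIN3A rose after NHERF1 knockdown (log2 0.21), fell after HER2 knockdown (log2 -0.32) and gave 0.099 after PMCA2 knockdown, which was not called. HDAC1 rose after PMCA2 and NHERF1 knockdown (log2 0.14 and 0.36), with 0.068 after HER2 knockdown, not called. HDAC2 was called higher after NHERF1 knockdown (log2 0.17) and lower after HER2 knockdown (log2 -0.12), neither of which its second probe called.

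Of 15 tested genes that set the stability of MYC protein, 6, 8 and 7 rose (40%, 53.3% and 46.7%) and 6, 4 and 3 fell (40%, 26.7% and 20%). The furthest from control, named after their values were seen, were PIM1, a kinase that stabilises MYC, and SKP2, a ubiquitin ligase subunit that acts on MYC. PIM1 had median intensities of 379, 292.7 and 243.7 in the 3 knockdowns and 107.8 in control, where 5 of 6 arrays were above the floor (log2 3.48, 2.95 and 2.64). SKP2 had medians of 2121, 4301 and 2674 in the 3 knockdowns and 832.3 in control, and rose 2.69, 5.61 and 3.36-fold. FBXW7, the ubiquitin ligase receptor that marks phosphorylated MYC for destruction, gave no settled direction. Its brightest probe had log2 differences of 0.75, 0.45 and 0.57, a second 0.11, 0.21 and 0.24, and another -0.34, -0.17 and -0.44 in the 3 knockdowns. HUWE1, another ligase of MYC, rose 1.35, 1.25 and 1.44-fold. AURKA, the mitotic kinase that shields MYCN from FBXW7, rose 1.42-fold after NHERF1 knockdown, fell by 0.11 on the log2 scale after PMCA2 knockdown and gave 0.034 after HER2 knockdown, which was not called. CIP2A, an inhibitor of the phosphatase that destabilises MYC, rose 1.21, 1.71 and 1.21-fold. AURKA and CIP2A were higher after NHERF1 knockdown than in either other knockdown (log2 0.47 and 0.50 over HER2 knockdown, adjusted p = 2.82e-09 and 8.95e-06). For NHERF1 over HER2 knockdown 7 of the 15 genes were higher, SKP2 among them (log2 0.74), and 3 were lower. These are 46.7% and 20% of the list, beside 25.7% and 24.5% of all genes. No protein was measured, so the stability of MYC or MYCN was not tested.

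Of 16 tested regulators of MYC transcription and messenger RNA, 10, 12 and 11 rose (62.5%, 75% and 68.8%, beside 33.3%, 35.0% and 34.8% of all genes) and 2, 3 and 2 fell (12.5%, 18.8% and 12.5%), with medians of 0.22, 0.34 and 0.32 in log2. FUBP1, which binds an upstream element of the MYC gene, rose 1.47, 1.31 and 1.90-fold. IGF2BP3, a member of the fetal RNA-binding protein family that stabilises MYC messenger RNA, was below the floor on all control arrays. Its median intensity was 1281 after PMCA2 knockdown, 1285 after NHERF1 knockdown and 924.5 after HER2 knockdown, against 96.79 in control, at least 48.6-fold, 47.8-fold and 33.5-fold higher (adjusted p = 8.31e-33, 9.14e-33 and 3.55e-32); the bound sets the mean of each knockdown against the lowest signal above the floor. IGF2BP1 and LEF1 were too close to the floor to be tested.

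Genes that MYC is known to activate differed between the knockdowns. Of 53 tested, 12 rose and 26 fell after PMCA2 knockdown against control (22.6% and 49.1%, beside 33.3% and 32.5% of all genes). NHERF1 knockdown gave 33 higher and 6 lower (62.3% and 11.3%, beside 35.0% and 30.3%), and HER2 knockdown 27 higher and 8 lower (50.9% and 15.1%, beside 34.8% and 31.2%). On chip 1 alone the 12 became 7 and the 8 became 5. Their median log2 differences were -0.14, 0.26 and 0.17. For PMCA2 over HER2 knockdown 1 of 53 was higher, where 25.6% of all genes were, and 40 were lower, where 28.1% were, with a median of -0.27 where that of all genes was -0.014. For PMCA2 over NHERF1 knockdown 1 was higher against 26.4% of all genes and 39 were lower against 29.1%, with a median of -0.39 where that of all genes was -0.013; these 2 comparisons share the PMCA2 knockdown arrays. The gene that was higher in both is RRS1, a ribosome assembly factor, named after its values were seen (log2 0.31 and 0.41). NHERF1 over HER2 knockdown gave 13 higher and 7 lower (24.5% and 13.2%, beside 25.7% and 24.5% of all genes), with a median of 0.074. On chip 1 alone 32 and 36 of the list were lower after PMCA2 than after HER2 and NHERF1 knockdown, and on chip 2 alone 30 and 36. The shares of all genes given above are from both chips, so the counts from a chip alone have no share of their own beside them.

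**Figure D4:**
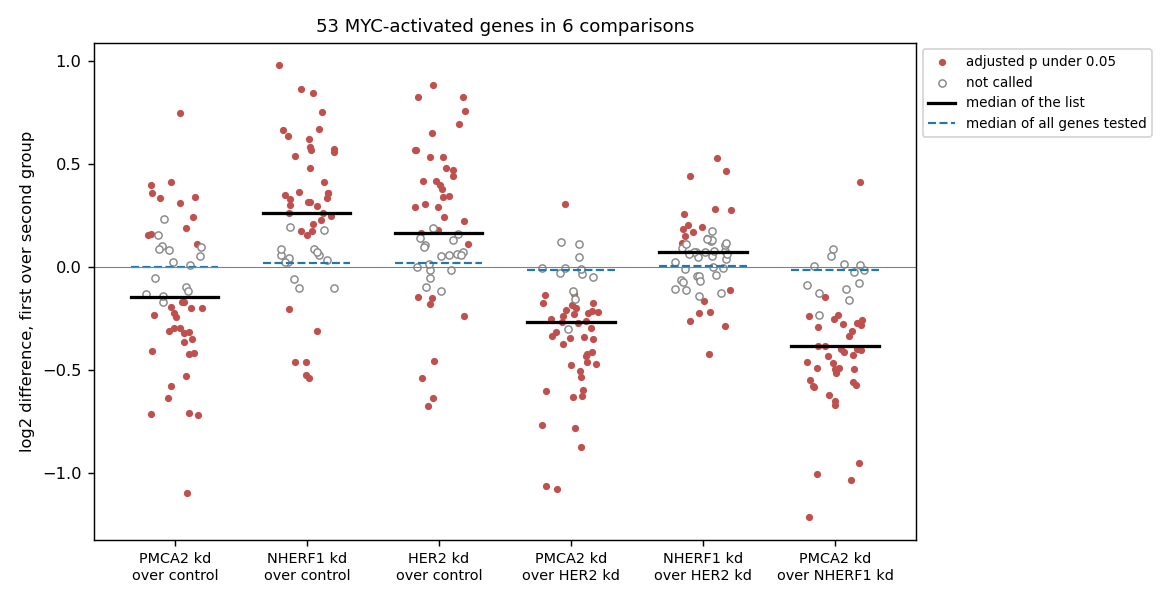
Log2 difference of each of 53 genes known to be activated by MYC in the 6 comparisons (first over second group), with the list's median (black) and the median of all genes tested (dashed). Points are mostly below 0 where PMCA2 knockdown is set over HER2 or NHERF1 knockdown, and mostly above 0 for NHERF1 and HER2 knockdown over control; comparisons share arrays.

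CDK4, the G1 cyclin-dependent kinase whose promoter is shown above, had the pattern of MYC. Its lowest, median and highest intensities were 1628, 1652 and 1818 after PMCA2 knockdown, 2176, 2259 and 2506 after NHERF1 knockdown, 2155, 2226 and 2308 after HER2 knockdown, and 1262, 1294 and 1317 in control. Knockdown arrays did not overlap control, and PMCA2 knockdown arrays lay below those of the other knockdowns. CDK4 rose 1.32, 1.82 and 1.78-fold over control (adjusted p = 6.86e-09, 7.49e-16 and 2.03e-15).

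ODC1, the first enzyme of polyamine synthesis and also shown above, went against it. Intensities were 1163, 1191 and 1211 after PMCA2 knockdown, 1327, 1410 and 1476 after NHERF1 knockdown, 1223, 1352 and 1373 after HER2 knockdown, and 1842, 1900 and 1952 in control. Every knockdown array was below every control array, and ODC1 fell 1.64, 1.38 and 1.45-fold (adjusted p = 2.11e-14, 2.17e-10 and 8.24e-12). CAD, which starts pyrimidine synthesis, rose 1.24, 1.5 and 1.57-fold, and NCL, the nucleolar protein nucleolin, rose 1.26, 1.28 and 1.39-fold. LDHA, lactate dehydrogenase, fell after PMCA2 and HER2 knockdown (log2 -0.35 and -0.15) and gave -0.057 after NHERF1 knockdown, not called. Its other probes gave -0.074 (adjusted p = 0.232) and -0.37 (adjusted p = 0.00329) after HER2 knockdown, so that call depends on the probe. CCND2 stayed near the floor and was called in none of the 6 comparisons.

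Genes that MYC is known to repress, 13 of them tested, gave 7, 7 and 6 higher and 5, 5 and 6 lower against control. The higher ones were 53.8%, 53.8% and 46.2% of the list, beside 33.3%, 35.0% and 34.8% of all genes. The lower ones were 38.5%, 38.5% and 46.2%, beside 32.5%, 30.3% and 31.2%. CDKN1A, the p21 cell cycle inhibitor, had intensities of 398.4, 441.1 and 467.8 after PMCA2 knockdown, 161.5, 164.5 and 169.4 after NHERF1 knockdown, 176.8, 192 and 217.3 after HER2 knockdown, and 479.3, 521.3 and 547.5 in control. No 2 groups overlapped. The decrease was 1.22-fold after PMCA2 knockdown, 5.23-fold after NHERF1 knockdown and 3.93-fold after HER2 knockdown (adjusted p = 0.000393, 1.07e-21 and 8.1e-20). CDKN2B, the p15 inhibitor, rose 2.86-fold after PMCA2 knockdown and fell 1.89-fold after NHERF1 knockdown and 1.22-fold after HER2 knockdown (adjusted p = 1.46e-17, 8.94e-13 and 0.000334). Its second probe called the first pair of changes but not the third (log2 -0.11, adjusted p = 0.274). The group means of CDKN1A ran in the reverse order of those of the brighter MYC probe. On the dimmer MYC probe HER2 knockdown was highest, and the order of NHERF1 and HER2 knockdown for MYC is not settled. The group means of CDKN2B reversed those of neither MYC probe, since control cells, lowest in MYC, held less CDKN2B than PMCA2 knockdown cells. NDRG1 fell 5.16, 4.06 and 5.23-fold, and the stress gene GADD45A rose 2.61, 1.52 and 2.62-fold. The furthest above control, named after their values were seen, were CEBPA, a differentiation factor, with median intensities of 1575, 1176 and 1077 in the 3 knockdowns and 143 in control (24.7, 18.4 and 16.7-fold), and GAS1, a growth arrest gene, with 276, 673.6 and 819.5 against 101.4 in control, where 1 of 6 arrays was above the floor (log2 3.09, 4.72 and 4.98).

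**Figure D5:**
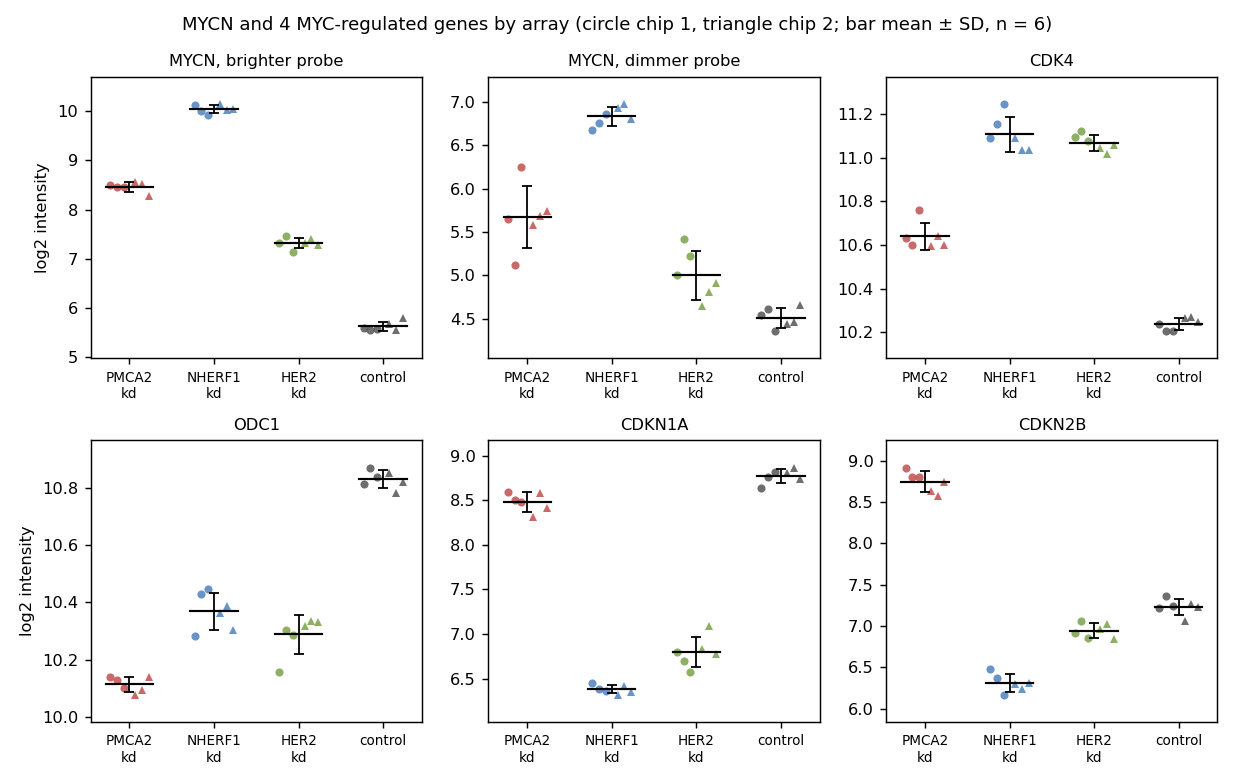
Log2 intensity of the 2 MYCN probes, of CDK4 and ODC1 (activated by MYC) and of CDKN1A and CDKN2B (repressed by MYC) on each array, by group, with the mean and SD of 6 arrays. MYCN and CDK4 are lowest in control, ODC1 is highest in control, and CDKN1A and CDKN2B are both lowest after NHERF1 knockdown.

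Targets of the MLX partners MLXIP and MLXIPL, 10 of them tested, gave 4, 4 and 4 higher and 4, 5 and 3 lower against control. The higher ones were 40%, 40% and 40% of the list, beside 33.3%, 35.0% and 34.8% of all genes. The lower ones were 40%, 50% and 30%, beside 32.5%, 30.3% and 31.2%. TXNIP, the best known of these targets and an inhibitor of glucose uptake, rose 1.24, 1.43 and 2.09-fold (adjusted p = 3.94e-06, 5.35e-10 and 1.35e-16), while MLX itself fell. ARRDC4, a relative of TXNIP, fell 1.41-fold after NHERF1 knockdown (adjusted p = 0.00108) and gave log2 differences of -0.10 and -0.072 after PMCA2 and HER2 knockdown, not called. HK2, a hexokinase also listed among the MYC-activated genes, fell 1.44 and 1.45-fold after PMCA2 and NHERF1 knockdown and gave -0.12 after HER2 knockdown, not called. The target furthest from control, named after its values were seen, was PFKFB3, which fell in all 3 knockdowns (log2 -1.546, -1.155 and -3.069).

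The genes whose log2 values ran most like the brighter MYC probe over the 24 arrays were HMGCS1, an enzyme of cholesterol synthesis (Pearson r = 0.982), DIMT1, a ribosomal RNA methylase (0.981), and PLCL2, a phospholipase C-like protein (0.979). In all, 326 genes had an r over 0.9 with MYC. For MAX the closest were YIPF3 (0.813), HTRA2 (0.793) and AUP1 (0.781), and 0 genes passed 0.9. These r describe 24 arrays that fall into 4 groups, so they mostly rank genes by how alike their 4 group means are.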

How the data were processed

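The values are probe intensity, deposited by the authors as a table of 24 arrays whose sorted values agree within 0.406%, so they had been quantile-normalised; no source used here gives the software or background step. RNA was extracted with TRIzol and labelled with biotin, per the labels' protocols. Another table with 24 signal columns whose names match no label was not used. Probes were named by the platform annotation: 30113 have 1 symbol, 8 several and 17202 none. limma 3.58.1 in R 4.3.3 corrected background by normexp (437 olfactory receptor probes as negatives, offset 16), normalised by quantiles and took log2. Probes above 106 on at least 6 arrays were kept, 22586 in all. One fit of all 24 arrays was used, p-values were Benjamini-Hochberg adjusted over all probes tested, and each gene is given by its kept probe of highest mean, with the other probes of members beside it. A bound ("at least") was given where a group had no array above the floor. The fit was checked on simulated independent arrays with planted differences, which cannot show whether the arrays used here are independent. Members and lists were chosen with earlier results of these data known: all 9 members, list genes by role, and for MYC and MAX the 3 genes of highest r. GATA3, KRT8, KRT18, PIM1, SKP2, RRS1, CEBPA, GAS1 and PFKFB3 were named after their values were seen. Alternatives changed the background, offset, filter, probe choice, chip, replicate block, spread and samples. Replicate numbers did not pair arrays (r of deviations -0.028 to 0.104).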

Additional observations from a re-analysis of the deposited data

Results flagged for a closer look

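In 4 of 52 combinations of probe and group, a single array lay far from the other 5: its gap to the nearest array, over the range of the group, passed Dixon's 95% critical value for 6 arrays. Chance flags about 1 in 20 groups. Replicate 2 of PMCA2 knockdown was the highest of its group on the dimmer MYC probe, at a log2 intensity of 10.1 against 9.98 for the nearest array. For MNT, replicate 3 of HER2 knockdown was the lowest, at 7.2 against 7.39. MLX was lowest at 5.77 in replicate 3 of PMCA2 knockdown, against 6.19 for the nearest array, and at 6.18 in replicate 1 of NHERF1 knockdown, against 6.43. All 4 arrays are on chip 1.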

How the results depend on the processing

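Against the values reported, 825 results of single member probes under an alternative kept their direction and call, 27 lost the call, 25 gained it and 11 changed sign, all 11 of them on 1 chip alone. Chip 1 alone called 4 members for NHERF1 over control (7 with both chips), 1 for NHERF1 over HER2 knockdown (3) and 3 for PMCA2 over NHERF1 knockdown (5), from fewer arrays. No share of all genes called on chip 1 alone is given beside these counts. The other 69 counts of members called stayed within 1.5 times. On chip 1 alone the sign changed for MYCL ILMN_1754541 in PMCA2 over control (-0.018), HER2 over control (-0.01), PMCA2 over HER2 (-0.009) and PMCA2 over NHERF1 (-0.048), for MYCL ILMN_1803650 in HER2 over control (-0.016), for MAX ILMN_1802457 in PMCA2 over control (-0.061) and NHERF1 over HER2 (0.15), and for MAX ILMN_1704236 in NHERF1 over HER2 (-0.005). On chip 2 alone it changed for MAX ILMN_1802457 in HER2 over control (0.125), MAX ILMN_1706546 in NHERF1 over HER2 (-0.064) and MLX in NHERF1 over HER2 (0.036). The cause was not tested. Of the counts over gene lists, 1095 stayed within 1.5 times and 57 did not; the 13 MYC-activated genes higher for NHERF1 over HER2 knockdown became 7 on either chip alone.

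With the replicate number as a block, the dimmer MYC probe was called for NHERF1 over HER2 knockdown (-0.174, adjusted p = 0.039; 0.0244 to 0.459 over its alternatives), and no other call of a member changed; 9 of 24 arrays correlated best with their own number. Adding olfactory receptor pseudogenes to the negative probes was chosen after seeing the data. Leaving out replicates in turn was not run with 6 a group. Members near an intensity of 106 are limited by signal over background: MYCL, MXI1, the second MLX probe and the dimmest MAX probe.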
